A study of Drosophila melanogaster with 14 samples.

Results

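The gene signal that the authors' table marks "nt" was compared between BG3 cells treated with RNA interference against Polyhomeotic (Ph) and mock-treated BG3 cells (Mock). BG3 (ML-DmBG3-c2) is a Drosophila cell line from the larval central nervous system. The comparison took every gene of the table, 7624 of 7624, and set the nt signal beside the total RNA signal of the same genes. Both groups grew in Schneider's medium with serum and insulin, and double-stranded RNA was added to the Ph group, in most experiments as a mixture of a pair of fragments per target. The labels describe 14 libraries, all of total RNA, of which 6 are Mock, 3 Ph, 3 Sce and 2 Pc. The libraries behind the nt signal are not among the labelled ones, and the sources used here give neither their number and depth nor the meaning of "nt". Each nt value below is therefore the authors' mean for a group, without a spread between replicates. The p-values and q-values are those of the authors' deposited table, which does not name the test, and they measure a spread between libraries that may be technical. The words rose and fell are kept for genes with q under 0.05.

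Ph is a core subunit of Polycomb Repressive Complex 1 (PRC1), which keeps developmental genes silent together with Polycomb (Pc), Posterior sex combs (Psc) or its relative Su(z)2, and Sex combs extra (Sce), the subunit that ubiquitinates histone H2A. A second complex, PRC2, methylates histone H3, and Pc binds that mark. Hox genes and genes of other developmental transcription factors are the best known PRC1 targets in flies, but PRC1 is also found at active genes. The question named in the study's title is how PRC1 acts on transcription of active genes.

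The nt and the total RNA signal did not measure the same quantity. In Mock, the median ratio of nt to total RNA signal was 0.133 over 835 genes without annotated intron and 2.37 over 511 genes with more than 80% of their span intronic. Across 7471 genes matched to the annotation, this ratio had a Spearman rho of 0.439 with the intronic share, a description across genes that share the same means. The difference between the group labelled Ph and Mock also behaved differently with gene length. The log2 ratio in total RNA had a rho of 0.386 with exonic length, while that in the nt signal had a rho of 0.026.

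In the nt signal, 189 genes passed, which is 2.48% of all 7624. Of these, 129 (1.69%) rose in the group labelled Ph and 60 (0.787%) fell. Read without adjustment, the authors' deposited table has p under 0.05 for 749 higher genes (9.82%) and 508 lower genes (6.66%). The genes that rose did so by a median ratio of 4.09, and those that fell stood at a median of 0.442 of Mock. The genes that rose and those that fell differed in their Mock level: the median nt signal in Mock per kilobase of gene span was 589 for the former, 3936 for the latter and 1564 for all genes. Of the 60 that fell, 50 had a Mock mean at or above the median of all genes, against 72 of the 129 that rose. The Mock mean is also the denominator of the ratio that defines both sets, so this contrast is partly fixed by the calls. Both sets held long genes, with a median span of 14500 bp for those that rose, 12640 bp for those that fell and 2780 bp for all genes. Across the 7471 matched genes, however, the nt log2 ratio had a rho of 0.033 with span. The median nt mean in Mock was 1929 over genes without annotated intron and 37656 over those with more than 80% of their span intronic. The part of signal level in the long spans of the called genes was not tested. Over all genes the median nt ratio was 1.02. The column sums of the nt signal differed by at most 0.253% between groups, so this median cannot show whether the whole nt signal changed.

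The targeted genes were examined first. Their nt signal stood above Mock: the authors' mean of ph-p was 18685 in Mock and 90923 in the group labelled Ph, a ratio of 4.87 that passed (q = 0.012 per the authors' deposited table). Its neighbour and near copy ph-d had means of 10729 and 57853 (ratio 5.39, q = 0.053 per the authors' deposited table) and did not pass. In total RNA the ratios of this pair per the authors' deposited table were larger, 8.64 and 8.09. RNA levels thus go against the labelled depletion in both measures, and reads from the added double-stranded RNA cannot be told apart from those of the genes. Every direction given here is that of the group labelled Ph against Mock. Reads of such similar genes may also have been divided between them.

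Psc and Su(z)2, which encode ring finger subunits, had higher means without passing. Psc went from an nt mean of 41974 to 91465 (q = 0.1 per the authors' deposited table) and Su(z)2 from 40182 to 89115 (q = 0.053 per the authors' deposited table). Pc, the chromodomain subunit, stood at 6427 and 6952 (ratio 1.08, q = 0.599 per the authors' deposited table). The H2A ligase gene Sce stood at 2475 and 4461 (q = 0.321 per the authors' deposited table). The nt ratios of Scm, l(3)73Ah, RYBP and Kdm2, which encode partners and alternative subunits, lay between 0.968 and 1.78 per the authors' deposited table, with q-values of 0.393 or more. In all, 1 of the 10 PRC1 genes rose in the nt signal, the targeted ph-p, and 0 fell, against 1.69% and 0.787% of all genes. Of the 10, 9 had an nt ratio above 1, against 52.4% of all genes. At an unadjusted p under 0.05 there were 4 higher and 0 lower, against 9.82% and 6.66% of all genes. In total RNA 3 of the 10 rose and 0 fell, against 3.52% and 0.367% of all genes. None of the 14 genes of PRC2 and of the DNA-binding Pho complex passed (q-values per the authors' deposited table), and none had an unadjusted p under 0.05; their median log2 ratio was 0.05 in the nt signal and 0.16 in total RNA. Of 22 trithorax group activators, which oppose Polycomb silencing, 0 passed and 2 were lower at an unadjusted p under 0.05 per the authors' deposited table, namely the GAGA factor gene Trl (nt ratio 0.754) and polybromo (0.751).

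**Figure D1:**
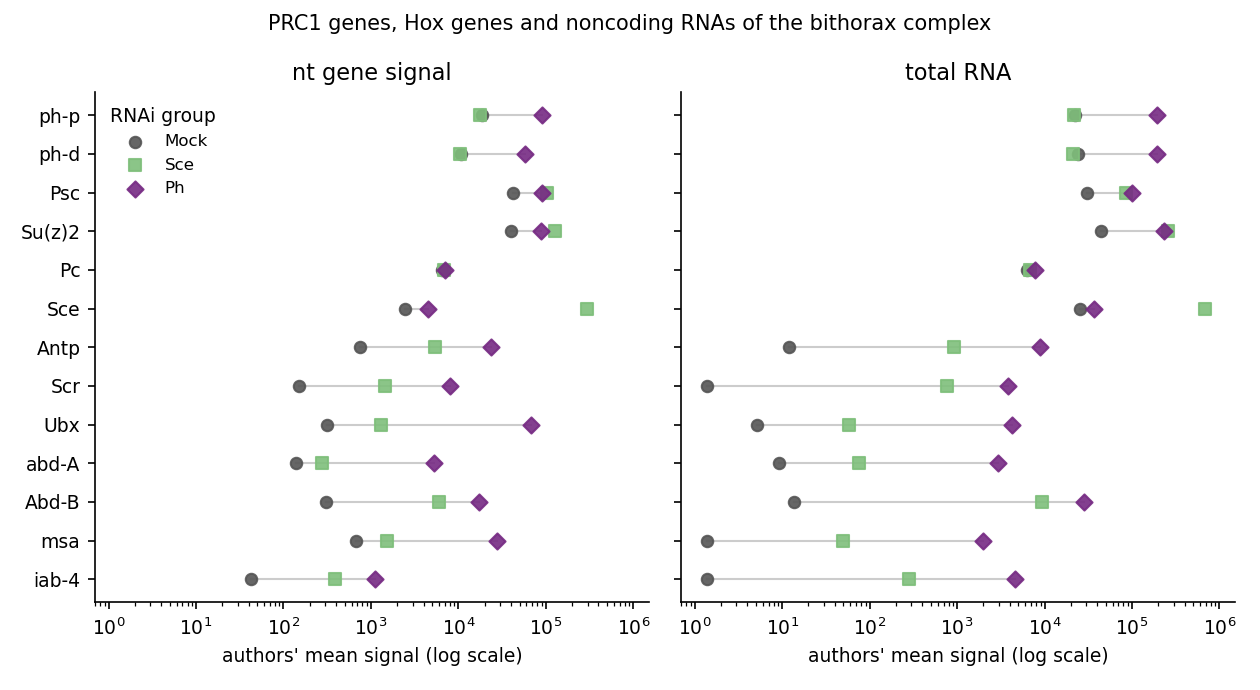
Authors' mean signal of PRC1 genes, Hox genes and noncoding RNAs of the bithorax complex in the nt gene signal (left) and in total RNA (right), on a log scale, for Mock, Sce and Ph, with a line from Mock to Ph. For each of the 5 Hox genes the Ph mean lies right of Mock in both panels, and the Mock means lie further left in total RNA (up to 13.7, for Abd-B) than in the nt signal (138.5 for abd-A to 743 for Antp).

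Hox genes set segment identity along the body. Of 8 Hox genes on the list, 5 are in the table, and all 5 had an nt ratio of 32.1 or more. The total RNA means of these 5 in Mock summed to 41.3, while each gene of the table reached 798.3 in some total RNA group. They are thus listed only because a treated group was high, and silent Hox genes that stayed low are missing. Ubx, which specifies the third thoracic segment, had the largest ratio of all genes that passed, from an nt mean of 316 to 67888 (ratio 214.8, q = 0.000 per the authors' deposited table). Antp, which specifies the second, rose from 743 to 23822 (ratio 32.1, q = 0.012 per the authors' deposited table). The remaining Hox genes did not pass although their means were far apart. Abd-B went from 309.7 to 17165 (q = 0.089), Scr from 149 to 7955 (q = 0.08) and abd-A from 138.5 to 5267 (q = 0.112) per the authors' deposited table, each with an unadjusted p of 0.014 or less there. In total RNA 4 of the 5 rose, against 3.52% of all genes, in a list conditioned on a high treated group as given above. Noncoding RNAs that lie among the abdominal Hox genes stood higher too: msa rose from an nt mean of 671 to 27707 (q = 0.032 per the authors' deposited table), and iab-4, a microRNA precursor, had means of 42.9 and 1123 (q = 0.068 per the authors' deposited table). The order of the Hox genes differed between measures: in the group labelled Ph, Ubx went from 5.18 to 4261 in total RNA and Abd-B from 13.7 to 28606, whereas Ubx had the larger ratio in the nt signal.

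Among the 32 lists, that of other developmental transcription factor genes held the most genes that rose. Of 78 on the list 37 are in the table, and 14 of them rose and 0 fell, against 1.69% and 0.787% of all genes. Their median log2 ratio was 3.57 in the nt signal and 5.25 in total RNA. In total RNA 24 rose and 1 fell, against 3.52% and 0.367% of all genes. Silent genes are listed in the table only where some total RNA mean reached 798.3. For them the counts of genes that rose and the medians are therefore both conditioned on a rise in total RNA. The T-box gene bi rose from an nt mean of 385 to 37762 (ratio 98.2, q = 0.000 per the authors' deposited table). The head and eye homeobox gene oc rose from 246 to 18886 (ratio 76.8, q = 0.021 per the authors' deposited table), and the LIM homeobox gene tup from 353 to 23669 (ratio 67.0, q = 0.034 per the authors' deposited table). A gene with both zinc fingers and homeodomains, zfh2, rose from 2477 to 120032 (ratio 48.5, q = 0.012 per the authors' deposited table).

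The list also held pairs of related genes that lie near each other. The spalt genes salm and salr rose 10.5 and 15.7-fold in the nt signal (q = 0.017 and 0.029 per the authors' deposited table). The zinc finger gene disco-r rose 20.6-fold (q = 0.012), while its relative disco had a ratio of 44.2 and did not pass (q = 0.092 per the authors' deposited table). The leg and wing genes Dll, dac and tsh rose 17.8, 15.8 and 7.48-fold (q = 0.044, 0.046 and 0.031 per the authors' deposited table). The iroquois gene mirr differed more in the nt signal than in total RNA: its nt mean rose from 4970 to 90942 (q = 0.012), while the total RNA ratio was 2.89 (q = 0.261) per the authors' deposited table. Genes already with signal in Mock were also among them, such as the homeobox gene ct, from 227366 to 366473 (ratio 1.61, q = 0.031 per the authors' deposited table), and NK7.1, from 47653 to 248392 (ratio 5.21, q = 0.036 per the authors' deposited table).

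Other developmental regulators had nt means under those of Mock without passing. The leg homeobox gene C15 went from 211396 to 22955, a ratio of 0.109 (q = 0.056 per the authors' deposited table). The homeobox genes hth and Lim1 stood at 0.502 (q = 0.057) and 0.361 (q = 0.096) of Mock per the authors' deposited table. The engrailed pair pointed different ways in the 2 measures: the nt ratio of en was 0.488 (q = 0.106) and that of inv 0.864 (q = 0.596), while the total RNA ratios per the authors' deposited table were 2.52 and 3.03. Of 12 segmentation genes in the table, oc and nub rose (nub from an nt mean of 330.2 to 3792, q = 0.012 per the authors' deposited table) and 0 fell, against 1.69% and 0.787% of all genes. Their median log2 ratio of 2.3 was 0.24 over the members at or above the median level.

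The largest nt folds at or above the median level went beyond the genes above. The secreted adhesion gene Ama rose from an nt mean of 271 to 39931 (ratio 147.5, q = 0.032 per the authors' deposited table), while in total RNA its Mock mean was already 6540 and the ratio of 33.0 did not pass (q = 0.127). The zinc finger gene chinmo, which acts in neuronal timing, rose from 653 to 80372 (ratio 123, q = 0.000 per the authors' deposited table). The visual system homeobox gene Vsx1 rose 78.4-fold (q = 0.029) and the adenosine receptor gene AdoR 47.1-fold (q = 0.048) per the authors' deposited table. Of the other genes with such folds, the anion exchanger gene Ndae1 (ratio 73.6, q = 0.073), the adhesion gene Fas3 (62.8, q = 0.057), the eye gene Optix (68.7, q = 0.15), the Sox gene SoxN (157, q = 0.173) and the paired-box gene Poxm (61.7, q = 0.173) did not pass per the authors' deposited table. A large nt fold was therefore no guarantee of a call.

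Genes that fell included those of secreted axon guidance cues and adhesion proteins, and the receptor gene otk. The netrin receptor genes fra and unc-5 and the Slit receptor genes robo and lea did not pass. Of 33 genes of axon guidance and adhesion in the table, 7 fell and 3 rose, against 0.787% and 1.69% of all genes, while the list's median log2 ratio was -0.01. Like the other lists, this list was chosen with earlier results of these data known, so its counts are a description only. The neighbouring netrin genes NetA and NetB encode secreted guidance cues and fell together. NetA went from an nt mean of 652147 to 115862 (ratio 0.178, q = 0.021 per the authors' deposited table) and NetB from 485181 to 149820 (ratio 0.309, q = 0.034 per the authors' deposited table). The repellent gene sli fell from 1020770 to 499157 (q = 0.049 per the authors' deposited table), and the semaphorin gene Sema-1a to 0.551 of Mock (q = 0.048 per the authors' deposited table). The leucine-rich repeat gene Fili fell from 1311607 to 259841 (q = 0.032 per the authors' deposited table), the N-cadherin gene CadN to 0.481 (q = 0.036) and the receptor gene otk to 0.662 (q = 0.041) per the authors' deposited table. The members that rose were Ama, the fasciclin gene Fas1 (2.17-fold, q = 0.012) and the integrin gene mys (2.22-fold, q = 0.025) per the authors' deposited table. In total RNA 4 of the 33 rose and 2 fell, against 3.52% and 0.367% of all genes. Those that rose were the netrin receptor gene unc-5, the adhesion genes Fas2 and Con and the integrin gene if, with nt ratios of 2.79, 7.13, 1.31 and 5.55 that did not pass (q = 0.073, 0.086, 0.315 and 0.076 per the authors' deposited table). Those that fell were NetA (ratio 0.348, q = 0.03) and Fili (ratio 0.267, q = 0.043) per the authors' deposited table, and for otk the total RNA ratio was 1.49 (q = 0.176).

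**Figure D2:**
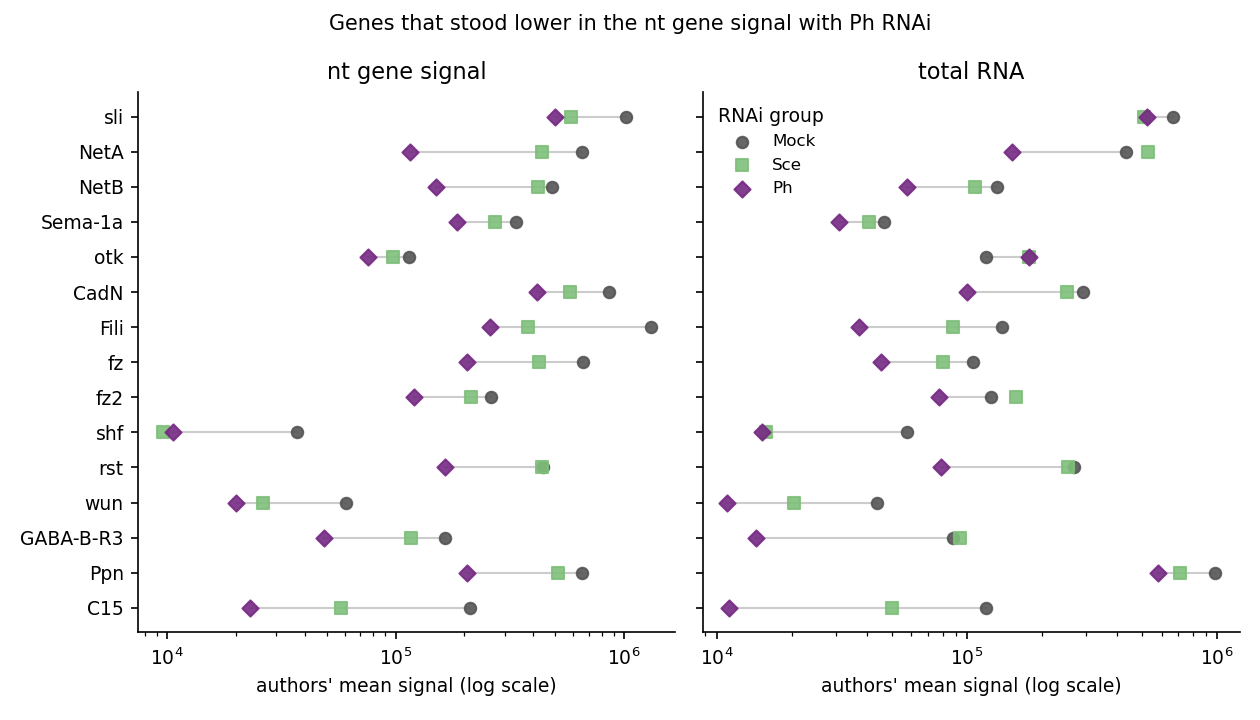
Authors' mean signal of 15 genes that stood lower with Ph in the nt gene signal (left), with the total RNA means of the same genes (right), on a log scale, for Mock, Sce and Ph, with a line from Mock to Ph. All but C15 (q = 0.056 per the authors' deposited table) passed in the nt signal, and otk is the gene whose total RNA mean lies right of Mock with Ph.

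The Wnt receptor genes fz and fz2 fell, while fz3, fz4 and arr had nt ratios of 0.736, 0.796 and 0.936 and did not pass (q = 0.118, 0.438 and 0.321 per the authors' deposited table). The nt mean of fz, the founding Frizzled receptor, fell from 660859 to 205121 (ratio 0.31, q = 0.017 per the authors' deposited table), and that of fz2 from 262965 to 120716 (ratio 0.459, q = 0.049 per the authors' deposited table). The gene dnt, named here after its values were seen, encodes a Ryk family Wnt receptor and stood at 0.499 of Mock (q = 0.021 per the authors' deposited table). On the same list the Hedgehog spreading factor gene shf fell from 36932 to 10660 (q = 0.044 per the authors' deposited table). The Wnt ligand gene Wnt4 and the Dpp antagonist gene Dad moved the other way, with rises of 5.71-fold (q = 0.012) and 5.23-fold (q = 0.044) per the authors' deposited table. Over this list of Wnt, Hedgehog and Dpp signalling, 2 of 32 genes rose and 3 fell in the nt signal and 4 rose and 0 fell in total RNA, against 1.69% and 0.787% of all genes in the nt signal and 3.52% and 0.367% in total RNA. The list's median log2 ratio was -0.13 in the nt signal and 0.32 in total RNA.

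Single genes outside the lists also fell, and wgn, Traf4 and egr are named here after their values were seen, with no list behind them. The tumour necrosis factor receptor gene wgn fell from 80441 to 40936 (q = 0.031 per the authors' deposited table) and the adaptor gene Traf4 from 115942 to 48534 (q = 0.012 per the authors' deposited table). Their total RNA ratios were 1.16 and 0.932 per the authors' deposited table. The tumour necrosis factor gene egr had an nt ratio of 0.223 and did not pass (q = 0.16 per the authors' deposited table). Others that fell were the lipid phosphatase gene wun (0.332, q = 0.000), the adhesion gene rst (0.371, q = 0.048), the epoxide hydrolase gene Jheh1 (0.234, q = 0.044), the thymidylate synthase gene Ts (0.354, q = 0.044) and chas (0.231, q = 0.017) per the authors' deposited table. The lowest nt ratio of all genes that fell was that of alpha-Est1, an esterase gene, from 2770 to 90.1 (q = 0.012 per the authors' deposited table).

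Receptor kinase signalling, by contrast, held genes that rose. Of 24 genes of EGF and FGF receptor signalling 3 rose and 0 fell, against 1.69% and 0.787% of all genes, which are also the shares to set beside the JAK-STAT, ecdysone and Notch lists here. The EGF and FGF list had a median log2 ratio of 0.38. The receptor kinase gene sev rose from 8712 to 88735 (q = 0.017), the FGF receptor adaptor gene stumps from 8047 to 53913 (q = 0.000) and the Raf kinase gene phl from 32011 to 39971 (q = 0.031) per the authors' deposited table. The JAK-STAT list, with 10 genes in the table, held chinmo as its 1 gene that rose and 0 that fell; Socs36E, a pathway inhibitor and target, had an nt ratio of 3.99 (q = 0.137 per the authors' deposited table). Of 14 ecdysone response genes 2 rose and 1 fell. The nuclear receptor gene Eip75B rose 3.12-fold (q = 0.029) and the lactate dehydrogenase gene ImpL3 4.44-fold (q = 0.041), while the Ets factor gene Eip74EF fell to 0.63 (q = 0.046) per the authors' deposited table. Of 22 Notch pathway genes 0 passed in the nt signal. At an unadjusted p under 0.05, 3 of them were higher and 2 lower there, against 9.82% and 6.66% of all genes. In total RNA 6 of the 22 rose, against 3.52% of all genes. The Enhancer of split gene HLHmbeta had an nt ratio of 2.03 (q = 0.059) and a total RNA ratio of 7.65 (q = 0.003), and the glycosyltransferase gene fng 1.58 (q = 0.176) and 2.92 (q = 0.009), per the authors' deposited table.

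Markers of cell types did not all point one way. Of the 13 glial genes in the table, 3 rose and 0 fell, against 1.69% and 0.787% of all genes. These shares, and 9.82% higher at an unadjusted p under 0.05, are also those to set beside the other cell type lists here. The glial genes that rose were axo, which encodes a secreted glial protein, from 2983 to 125829 (q = 0.049), the cell adhesion gene Nrg from 12418 to 83623 (q = 0.012) and the sodium pump subunit gene nrv2 from 9296 to 43172 (q = 0.012) per the authors' deposited table. Of the 13, 6 had an nt ratio under 1 and the list median was 0.17 on the log2 scale. The lowest were wun2, a lipid phosphatase gene, the septate junction gene Gli and the glutamate transporter gene Eaat1, at 0.303, 0.48 and 0.529 of Mock, none of which passed (q = 0.221, 0.381 and 0.218 per the authors' deposited table). The glial master regulator repo went from an nt mean of 2890 to 41380 without passing (q = 0.127), while in total RNA it rose (q = 0.004 per the authors' deposited table). Of 5 neural precursor genes 0 passed in the nt signal and 3 were higher at an unadjusted p under 0.05; pros had an nt ratio of 3.26 (q = 0.214) against 29.3 in total RNA (q = 0.023) per the authors' deposited table. Of 8 neuron genes the GABA receptor gene GABA-B-R3 fell, from 164016 to 48470 (q = 0.044 per the authors' deposited table), and elav, the pan-neuronal marker, had nt means of 9594 and 10858 (q = 0.425 per the authors' deposited table). Of 13 muscle genes the titin-related gene zormin rose from 16365 to 127937 (q = 0.000 per the authors' deposited table) and the others did not pass. Of 20 hemocyte and immune genes the matrix gene Ppn fell to 0.313 (q = 0.044 per the authors' deposited table), and the collagen IV genes Cg25C and vkg stood at 0.384 (q = 0.06) and 0.374 (q = 0.058) per the authors' deposited table. On the same list 9 of 20 had a ratio above 1 and the median log2 ratio was -0.13; the Toll ligand gene spz and the Runx gene lz had nt ratios of 9.29 (q = 0.132) and 12.2 (q = 0.11) and PGRP-SA, a peptidoglycan receptor gene, 43.2 from a Mock mean of 6.57 (q = 0.367), per the authors' deposited table. The collagen IV genes and Ppn hold most of that list's summed signal. The summed nt signal of these lists went from 866932 in Mock to 1247013 in the group labelled Ph for glia, from 219123 to 297717 for neural precursors, from 561228 to 517234 for neurons, from 1302550 to 1350964 for muscle and from 5242500 to 2318244 for hemocyte and immune genes. Whether the share of cell types changed was not tested. In such bulk samples fewer cells of a type and less RNA per cell cannot be told apart.

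Genes of basic cell functions separated the 2 measures. The 86 cytosolic ribosomal protein genes had a median log2 ratio of 0.12 in the nt signal and -0.78 in total RNA. In the nt signal 58 of them had a ratio above 1, against 52.4% of all genes, while in total RNA 80 had a ratio under 1, against 44.3% of all genes. The 96 copies of replication-dependent histone genes, whose reads cannot be assigned to 1 copy with certainty, had a median log2 ratio of -0.03 in the nt signal and -1.06 in total RNA. For total RNA, 0 of the ribosomal protein genes and 3 histone copies fell; in the nt signal 0 of either list passed. At an unadjusted p under 0.05 the nt signal held 3 ribosomal protein genes higher and 1 lower, and 1 histone copy higher and 0 lower. These genes are short: the exons spanned a median of 916 bp in the ribosomal protein list and 529 bp in the histone list, against 2140 bp over all genes, and exonic length moved with the total RNA ratio as given above. The part of length in these medians was not tested.

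DNA replication and mitosis genes showed the opposite pattern. Of the 34 listed genes, 32 had an nt ratio under 1, against 47.5% of all genes, and their median log2 ratio was -0.65 in the nt signal and 0.12 in total RNA. In total RNA 22 of the 34 had a ratio above 1, against 55.6% of all genes. None passed in the nt signal at q under 0.05, but 17 were lower and 0 higher at an unadjusted p under 0.05, against 6.66% and 9.82% of all genes, per the authors' deposited table. The spindle checkpoint kinase gene BubR1 had nt means of 16254 and 6849 (q = 0.053) and a total RNA ratio of 1.15 per the authors' deposited table. The replicative helicase genes Mcm2, Mcm5, Mcm6 and Mcm7 had nt ratios of 0.484, 0.553, 0.553 and 0.448 (q from 0.093 to 0.131) and total RNA ratios between 1.04 and 1.25 per the authors' deposited table. For the cyclin genes CycA, CycB and CycE the nt ratios were 0.675, 0.726 and 0.61, with q-values of 0.159, 0.055 and 0.118 per the authors' deposited table. Thus the list stood lower by its median and count, while no single gene of it passed.

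Glycolysis genes stood higher in the nt signal. Of the 13 listed genes, 12 had an nt ratio above 1, against 52.4% of all genes, with a median log2 ratio of 1.03 against 0.32 in total RNA. ImpL3 rose from 7358 to 32656 while its total RNA ratio was 1.07 (q = 0.55 per the authors' deposited table). The arginine kinase gene Argk, an enzyme of phosphagen storage, rose from 36075 to 249675 (q = 0.034 per the authors' deposited table). In all 10 of the 13 were higher at an unadjusted p under 0.05, against 9.82% of all genes, and 2 at q under 0.05, against 1.69%. The aldolase gene Ald and the isomerase gene Pgi had nt ratios of 2.23 (q = 0.057) and 2.16 (q = 0.059) per the authors' deposited table, and Pglym78, Tpi, Eno and Pfk had ratios between 1.99 and 2.51 (q from 0.082 to 0.137). Named after its values were seen, the gluconeogenesis gene Pepck rose from 43355 to 153515 (ratio 3.54, q = 0.046 per the authors' deposited table) with a total RNA ratio of 0.923.

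**Figure D3:**
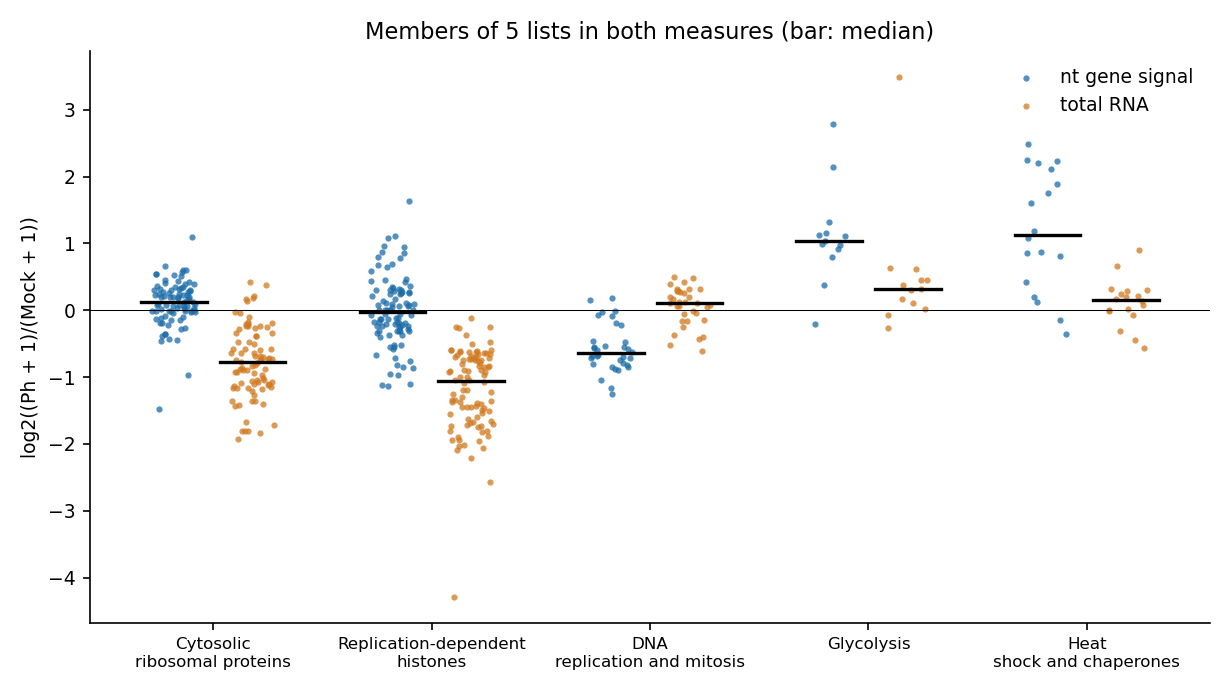
Log2 ratio of the group labelled Ph to Mock (pseudocount 1) for each member of 5 lists, in the nt gene signal and in total RNA, with the median as a bar. The nt medians are 0.12, -0.03, -0.65, 1.03 and 1.13 from left to right, and those of total RNA are -0.78, -1.06, 0.12, 0.32 and 0.16.

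Heat shock and chaperone genes had a median log2 ratio of 1.13 in the nt signal and 0.16 in total RNA, and 10 of 18 had an nt ratio of at least 2, against 8.25% of all genes, while 0 had one of 0.5 or less, against 5.3% of all genes. None of them passed, and none had an unadjusted p under 0.05 per the authors' deposited table. The 6 copies of Hsp70 had nt ratios between 3.39 (Hsp70Aa) and 4.76 (Hsp70Bb), with unadjusted p-values between 0.181 (Hsp70Ba) and 0.22 (Hsp70Aa) per the authors' deposited table, and reads of such copies may have been divided among them. Immediate early and stress response genes had a median log2 ratio of 0.51, with 0 calls. At an unadjusted p under 0.05, 5 of these 14 were higher and 1 lower, against 9.82% and 6.66% of all genes. The JNK phosphatase gene puc had nt means of 65402 and 161778 (q = 0.054) and a total RNA ratio of 0.979 per the authors' deposited table. The median of 12 housekeeping reference genes was 0.28, with 0 calls and 2 higher at an unadjusted p under 0.05, against 9.82% of all genes. Act5C had an nt ratio of 1.37 (q = 0.224 per the authors' deposited table).

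The transcription machinery held no gene that passed. The 34 genes of RNA polymerase II and general factors had a median nt log2 ratio of 0.02, the 19 pausing and elongation factor genes 0.06, the 11 cohesin and loader genes -0.06, the 8 dosage compensation genes -0.37 and the 10 RNA interference genes -0.12. None of these lists held a call, and at an unadjusted p under 0.05 the counts were 1 higher and 2 lower, 0 and 0, 0 and 2, 0 and 0, and 0 and 1 in this order. The shares of all genes to set beside the lists here were 9.82% higher and 6.66% lower at that threshold. For calls they were 1.69% and 0.787%. The second largest polymerase subunit gene RpII140 had an nt ratio of 0.575 (q = 0.097) and the cohesin subunit gene SA 0.494 (q = 0.06) per the authors' deposited table. Median log2 ratios were 0.22 over the 72 genes for mitochondrial ribosomal proteins (-0.07 for members at or above the median level) and 0.23 over the 30 proteasome genes, with 0 calls in either list and 4 and 1 genes higher, with 0 lower, at an unadjusted p under 0.05. Of the 11 long noncoding RNAs in the table msa was the one that rose, against 1.69% of all genes, with a list median of 0.05.

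The calls of both measures overlapped in part. In total RNA 296 genes passed (3.88%), of which 268 (3.52%) rose and 28 (0.367%) fell. Of the genes that rose, 58 did so in both measures, which is 45.0% of the nt genes and 21.6% of the total RNA genes. Of those that fell, 5 did so in both, 8.33% of the nt genes and 17.9% of the total RNA genes. These 5, named after their values were seen, were NetA, Fili, chas, GABA-B-R3 and Reck, an extracellular protease inhibitor gene at an nt ratio of 0.375 (q = 0.029 per the authors' deposited table). No gene rose in one measure and fell in the other. Of the 60 genes that fell in the nt signal 53 had a total RNA ratio under 1, with a median of 0.664, and of the 129 that rose 123 had one above 1, with a median of 2.73. Across all 7624 genes the log2 ratios had a Pearson r of 0.603 and a Spearman rho of 0.353, given as a description, since genes are not independent replicates and it is not given whether both measures came from the same cultures.

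**Figure D4:**
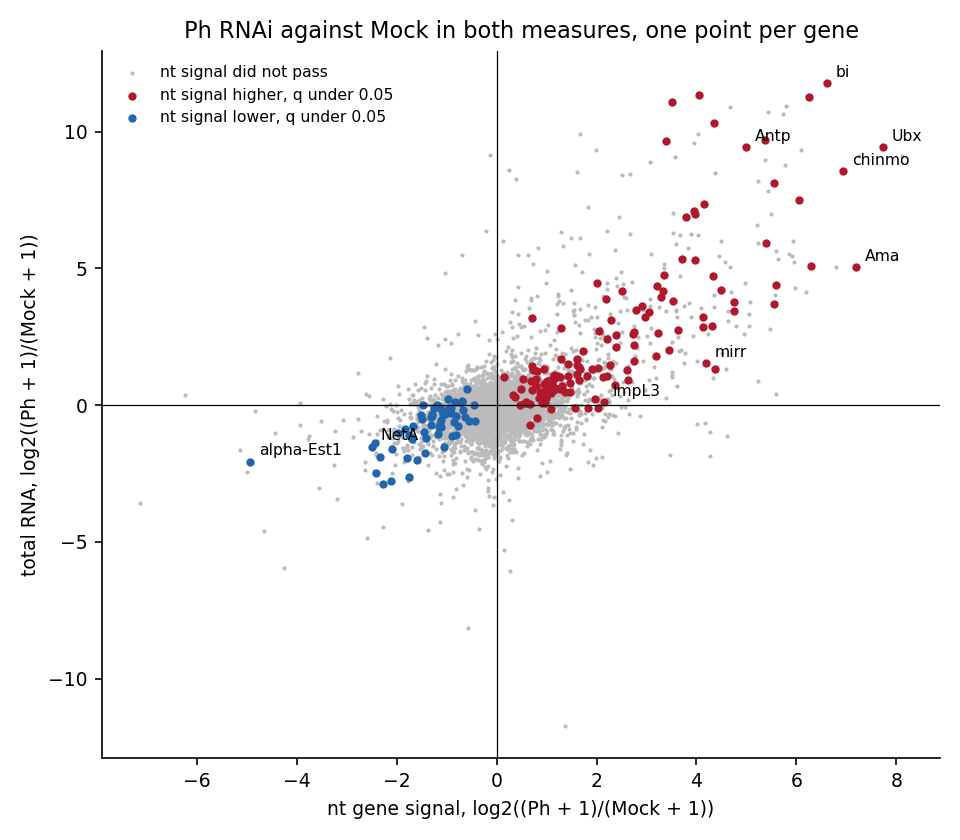
Log2 ratio of the group labelled Ph to Mock (pseudocount 1) in the nt gene signal (x axis) and in total RNA (y axis), with 1 point for each of 7624 genes, coloured by the authors' nt q-value. The 129 genes higher in the nt signal lie on the right, with 123 above a total RNA ratio of 1, and the 60 lower genes lie on the left, with 53 under it.

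Genes with little total RNA signal in Mock are chosen by that column. Each gene of the table reached 798.3 in some total RNA group, which need not be the group labelled Ph. Their large total RNA folds, and the gap to their nt folds, are therefore partly set by the choice. The 88 genes with a total RNA mean under 100 in Mock had a median of 21.2 there and a median nt mean of 139 in Mock. Their median log2 ratio was 3.45 in the nt signal and 6.36 in total RNA. Of the 88, 15 rose in the nt signal, against 1.69% of all genes, in a set conditioned on a high treated group in total RNA. Genes with the largest excess of the nt over the total RNA log2 ratio included mirr, Ama, Ndae1, ImpL3 and the lamin gene LamC (nt ratio 11.4, q = 0.065; total RNA ratio 2.33, q = 0.253, per the authors' deposited table). Genes with the largest excess of total RNA included oc, Abd-B, repo, pros, the transporter gene Picot (nt ratio 43.4, q = 0.056; total RNA ratio 1773, q = 0.023, per the authors' deposited table) and the titin gene sls (1.41, q = 0.295, and 7.32, q = 0.09, per the authors' deposited table). Whether these differences between measures exceed replicate error was not tested, since no values per library were at hand.

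Neighbouring genes were called together in 10 instances, while 2.48% of all genes were called. Of these adjacent pairs among the genes of the table, 8 held genes that both rose, 1 held genes that both fell (NetA and NetB) and 1 was mixed. A run of genes counts as more than 1 pair. How many such pairs unrelated calls would give was not tested, so the counts are a description only. The pairs that rose included salr and salm, NK7.1 and CG31320, and the run of osp, Adh and mol, in which the alcohol dehydrogenase gene Adh rose from 1041 to 9557 (q = 0.029 per the authors' deposited table) and lies within the osp gene. Reads of overlapping genes may not be told apart, since whether counting used strand is not given.

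The nt signal was also deposited for cells treated against Sce, the H2A ligase subunit of the same complex, and this comparison uses the same Mock mean. There 9 genes passed (0.118%), of which 5 (0.0656%) rose and 4 (0.0525%) fell. Those given here, zfh2, cpo, wun, Nhe2, alpha-Est1 and gukh, are the ones that also passed with Ph. They were chosen by both calls and are no measure of agreement between the treated groups. For zfh2 the nt ratios per the authors' deposited table were 48.5 with Ph (q = 0.012) and 11.3 with Sce (q = 0.000), and for cpo, an RNA-binding protein gene, 27.1 (q = 0.032) and 4.97 (q = 0.000). For wun they were 0.332 (q = 0.000) and 0.435 (q = 0.000), for Nhe2 1.76 (q = 0.031) and 1.68 (q = 0.000), and for alpha-Est1 0.033 (q = 0.012) and 0.221 (q = 0.000) per the authors' deposited table. In total RNA the ratio of Nhe2 with Ph was 0.715 (q = 0.245 per the authors' deposited table). The gene gukh, whose product binds the synaptic scaffold Discs large, had ratios on either side of 1, 1.66 with Ph (q = 0.044) and 0.48 with Sce (q = 0.000) per the authors' deposited table. For Ubx the nt mean was 316 in Mock, 1304 with Sce and 67888 with Ph, and for NetA it was 652147, 439104 and 115862. The difference between the treated groups was not tested, and both are read against 1 Mock mean.

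**Figure D5:**
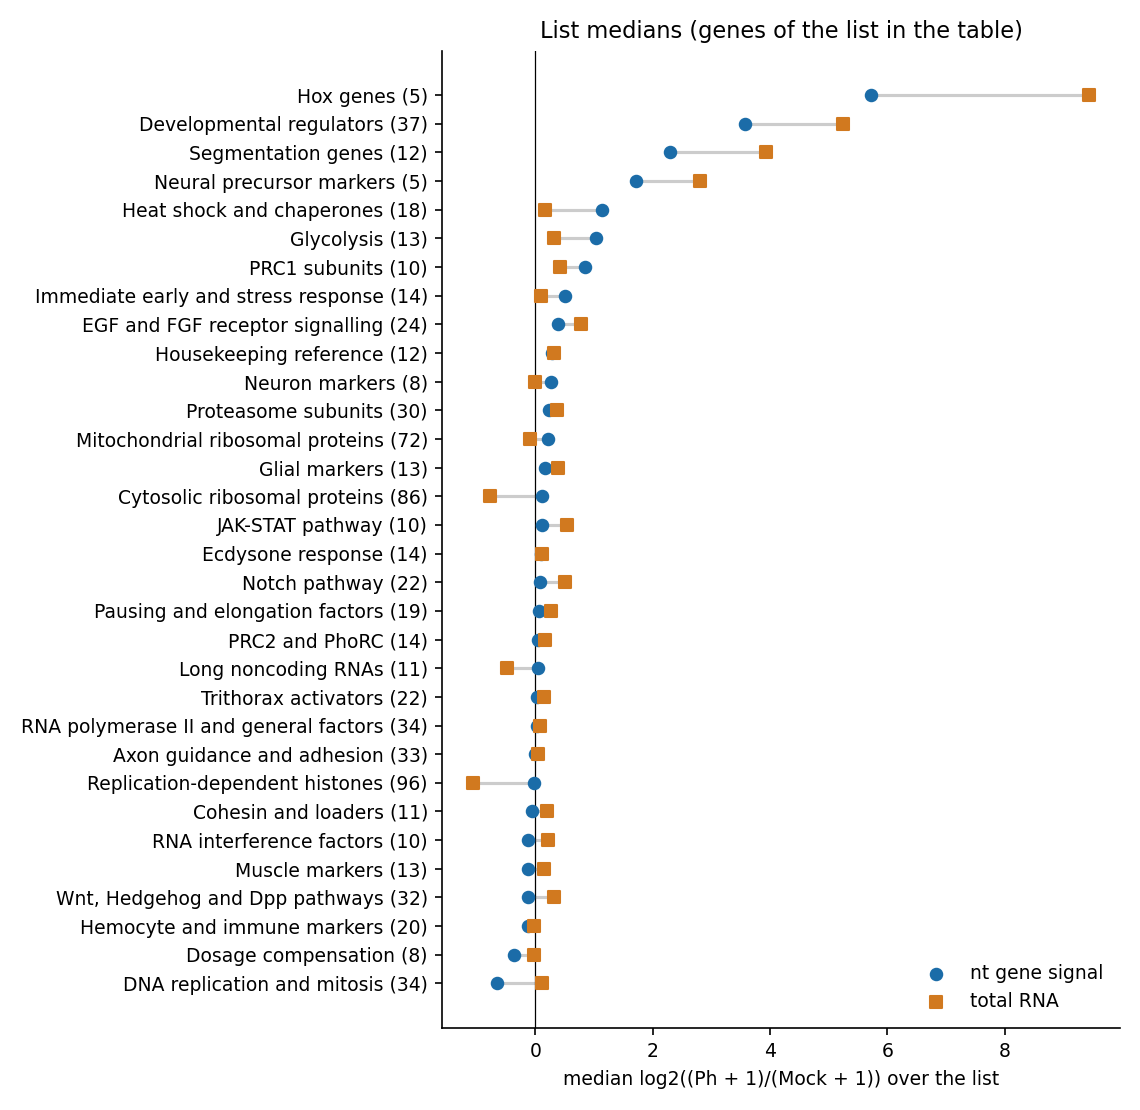
Median log2 ratio of the group labelled Ph to Mock (pseudocount 1) over the members of 32 gene lists, in the nt gene signal (circles) and in total RNA (squares), with the number of listed genes in brackets. Hox genes lie furthest right in both (5.73 and 9.44), and DNA replication and mitosis genes lie furthest left in the nt signal (-0.65) but not in total RNA (0.12).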

How the data were processed

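The labels describe total RNA from BG3 cells, depleted of ribosomal RNA and sequenced as Ion Torrent libraries. The 1 deposited table lists 7624 genes with group means only and 0 columns of values per library. Its total RNA signal is the authors' mean per group, per the file headers. The nt gene signal is likewise the authors' mean, per the file headers, and matches no labelled library. Each ratio is the treated mean over the Mock mean as deposited, and equalled that quotient for 7624 genes within 2.5% or 0.001. Each p-value and q-value was deposited by the authors to 3 decimals, so 0.000 stands for a smaller value. Of the tools, bedtools is listed, without version, per the submitters' processing notes. The aligner, genome build, normalization and test were not given in the sources used here. Column sums of the nt signal differed by at most 0.253%. Depth is unknown, so no error or interval can be given beside a mean.

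From these values log2 ratios with a pseudocount of 1, which understates the change of low genes, list medians and counts were computed with Python 3.11.15, pandas 2.3.3 and numpy 2.4.6, tested on simulated data. Gene spans, exons and order came from Ensembl release 115 (BDGP6), matching 7471 of 7624 symbols. The members and the 32 lists were chosen with earlier results of these data known. Named genes were the targeted, PRC1 and Hox genes, the 12 largest nt folds each way at or above the median level and among genes with q under 0.05, the 10 largest differences between measures each way, and, per list, the 4 or fewer members of smallest nt q-value. Other genes in the text were chosen after their values were seen. Alternatives were other thresholds, pseudocounts, a level filter and division by the median ratio.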

Additional observations from a re-analysis of the deposited data

How the results depend on the processing

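The number of calls depended on the threshold. At q under 0.10, 353 genes were higher and 181 lower in the nt signal, 604 and 95 in total RNA, and 156 and 20 in both measures. At an unadjusted p under 0.05 these counts were 749 and 508, 1059 and 358, and 336 and 74. Benjamini-Hochberg adjustment of the rounded p-values gave 18 lower genes in total RNA and left the other counts of calls within 1.5 times. Among genes at or above the median level, 288 had an nt ratio of at least 2 and 156 of at most 0.5. A pseudocount of 100 gave a median log2 ratio of 5.02 for Hox genes and 2.83 for developmental regulators, and members at or above the median level gave 0.24 for segmentation genes. Some list medians near 0 changed sign among members at or above the median level: mitochondrial ribosomal proteins to -0.07, long noncoding RNAs to -0.31, PRC2 and the Pho complex to -0.02, trithorax activators to -0.04, RNA polymerase II to -0.18 and pausing factors to -0.07. Divided by the median ratio, RNA polymerase II gave -0.01.

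No paired analysis was possible because the table holds group means only, and leaving out a library was not possible for the same reason. Promoter sequences were not analysed here. The spread between libraries, the depth and the normalization behind each mean are unknown, so a difference between the nt and the total RNA ratio of a gene has no test.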
